A study of Sorghum bicolor with 14 samples.

Results

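Gene expression in the middle internode of the stem of sweet sorghum (Sorghum bicolor), variety CSV24SS, was compared between pot plants harvested at about 2% soil moisture (D3) and pot plants harvested at about 7% (D2). Both groups were grown as 1 plant per pot, had water withheld once the flag leaf was out, and were taken at booting, the stage at which the panicle is still enclosed by the flag leaf sheath. Another group of pots was taken at about 13% (D1), and 4 groups of plants from a fertilised soil bed were taken at floral initiation (FI), booting (B), the milky stage (MS) and soft dough (SD). Each of the 7 groups had 2 samples, 14 in all. The submitters gave 1 value per gene and group, so the 2 samples of a group cannot be seen apart. The differences below are between single values, with no replicate error to hold them against, and none was tested. None of the groups is of pots kept watered, so soil moisture, time without water and any difference in plant age cannot be told apart.

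Values are FPKM, fragment counts corrected for transcript length and library size. Rows with 1 FPKM or more in any of the 3 drought columns were taken as measured, which 16801 of 32726 were. The row nearest to this limit from below reached 0.999932 FPKM. A change is the difference in log2(FPKM + 1) between D3 and D2, positive where D3 is higher, and a gene was counted as different at a change of 1 or more, called 2-fold here on the FPKM + 1 scale. The 15925 rows left out cannot reach that, because they were below 1 FPKM in all 3 columns. Because of the added 1, changes of weakly expressed genes are understated, and a ratio of plain FPKM can pass 2 where the change does not pass 1. The read counts behind the values were not used here and the depth of each sample is unknown. The table carries gene identifiers without descriptions. Names and roles below come from published work on a list of sorghum loci, and an identifier outside that list is given with its position only. Positions are those of the deposited table, whose genome build was not given in the sources used here.

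Sweet sorghum stores sucrose in the parenchyma of its stem. Sucrose arrives through the phloem and crosses membranes through SUT symporters and SWEET exporters, and TST proteins load sugars into the vacuole. Stem strength comes from cellulose and from lignin, which is built from phenylalanine through the phenylpropanoid pathway. Under water shortage plants commonly accumulate dehydrins, hydrophilic proteins that protect other proteins and membranes.

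At 2% soil moisture many more genes were higher than lower, relative to 7%. At least 2-fold higher in D3 were 659 measured genes (3.92%), and 152 (0.905%) were at least 2-fold lower, which left 15990 within 2-fold. The imbalance lay in the tail of the distribution. The median change over all measured genes was -0.0023, and 49.7% of them had any higher value in D3. The middle 50% of genes lay between changes of -0.19 and 0.22, while the 5th and 95th percentiles were -0.54 and 0.86. Larger differences were more one-sided. A change of 2 or more (4-fold) was shown by 147 genes upward and 11 downward, a change of 3 or more by 52 and 2, and a change of 4 or more by 19 and 0.

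**Figure D1:**
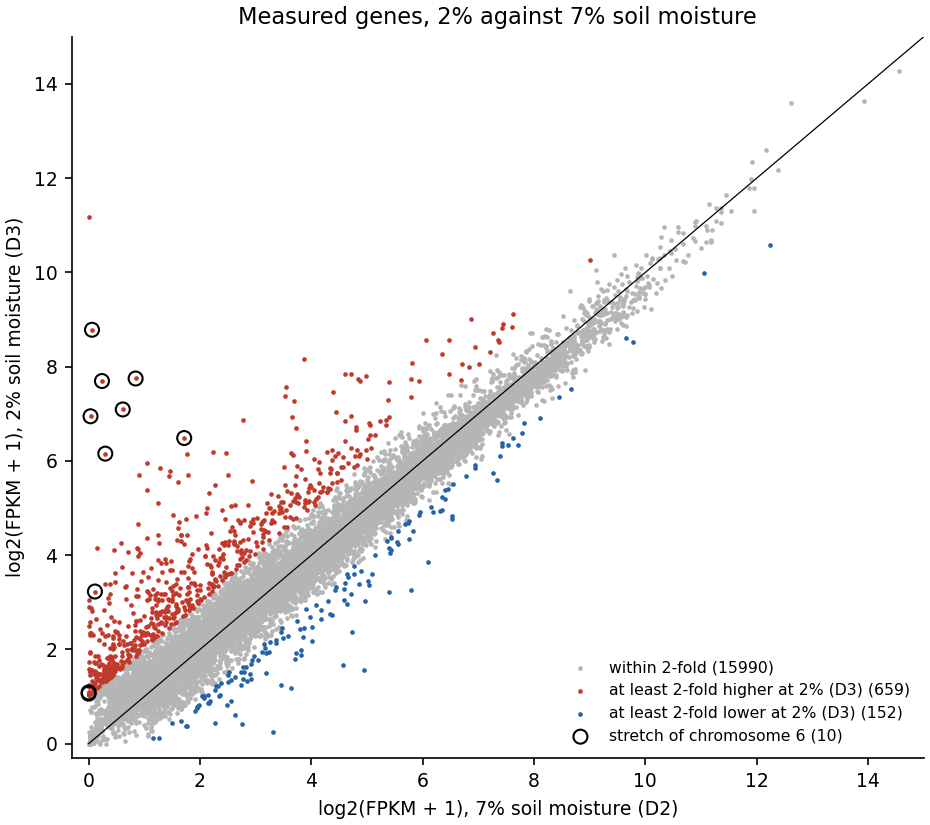
Level of each measured gene as log2(FPKM + 1) at 2% soil moisture (D3, vertical axis) against 7% (D2, horizontal axis), 1 point per row of the table and 1 value per group. The 659 red points (higher in D3) outnumber the 152 blue points (lower in D3), and 7 of the 10 circled rows of a stretch of chromosome 6 lie far above the line of equal values.

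Many of the higher genes were weakly expressed in D2. Of the 659, 229 were below 1 FPKM in D2 and 15 were listed at 0 there, and choosing genes by a lower D2 favours such rows. Abundant genes were also among them. Of the 1623 rows at or above 100 FPKM in D3 or D2, 54 were higher and 20 lower, beside 659 and 152 of all 16801. The median level of the 659 genes was 9.52 FPKM in D3, 1.96 in D2 and 4.85 in D1. For the 152 lower genes it was 5.18 FPKM in D3, 16.5 in D2 and 6.15 in D1. In both sets the D1 median lay between the other two. The comparisons of D3 with D2 and of D1 with D2 share the D2 column, which also chose the sets, so these medians describe the sets and test nothing. Near the threshold, 100 genes had a change of 1 to 1.1 and 125 a change of 0.9 to 1, and on the lower side 34 lay just past -1 and 58 just short of it. With a pseudocount of 5 FPKM the counts were 299 higher and 63 lower.

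Most of the largest changes came from 1 stretch of chromosome 6, 455 kb long (4271548 to 4726743), whose limits were set after its values were seen. It holds 19 rows, of which 14 were measured. Of these, 10 were at least 2-fold higher in D3, 4 were within 2-fold and 0 were lower, against 3.92% of all measured genes being higher. Of the 10 largest changes in the whole comparison, 7 belong to this stretch, and the largest of all was a chromosome 10 row of several gene models that was listed at 0 in D2. Its 10 higher rows summed to 1287 FPKM in D3, 4.17 in D2 and 10.5 in D1.

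Within the stretch, levels that were near 0 in D2 reached those of abundant transcripts in D3. Sobic.006G025900 (4669311 to 4670061) had 439 FPKM in D3 and 0.0431 in D2, a change of 8.72, and was listed at 0 in D1. Its neighbour Sobic.006G026000 (4676586 to 4678325) had 122 FPKM in D3, 0.0239 in D2 and 0.0096 in D1, a change of 6.91. These are the 2 largest increases of the comparison among rows with a single gene model, a locus of their own and a value above 0 in both columns.

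The next row along, Sobic.006G026100, had 214 FPKM in D3, 0.795 in D2 and 2.198 in D1. At the left end of the stretch Sobic.006G024800 had 135 FPKM in D3, 0.530 in D2 and 0.893 in D1. Near the right end Sobic.006G026300 had 88.6 FPKM in D3, 2.29 in D2 and 6.28 in D1. In each of these rows D3 stood alone and D2 and D1 were both low. The same held for a row of the models Sobic.006G025400 and Sobic.006G025700, at 206 FPKM in D3, 0.181 in D2 and 0.726 in D1, and for that of Sobic.006G025500 and Sobic.006G025600, at 70.2 FPKM in D3, 0.231 in D2 and 0.383 in D1. Those last 2 rows cover the same locus, so how reads were split between them is uncertain.

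Genes lying between them did not share the pattern. Sobic.006G025000 had 25.3 FPKM in D3 and 25.8 in D2, and Sobic.006G025300 had 9.79 FPKM in D3 and 9.88 in D2. Sobic.006G026250 and Sobic.006G026400, towards the right end of the stretch, had changes of 0.21 and 0.27. The other 3 higher rows were weak, Sobic.006G025800 and Sobic.006G026200 at 1.09 and 1.13 FPKM in D3 and listed at 0 in D2, and Sobic.006G026500 at 8.37 FPKM in D3 and 0.0817 in D2. With a pseudocount of 5 FPKM, Sobic.006G025800 and Sobic.006G026200 fell short of 2-fold.

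The same rows also varied widely in the development series, whose table was normalised separately, so that its levels are not set against the drought levels. Of the 10 higher rows, 8 were matched there by name. Sobic.006G025900 had 496 FPKM at FI, 0.422 at B, 2.78 at MS and 82.5 at SD, and Sobic.006G026000 had 104 at FI, 0.236 at B, 5.48 at MS and 35.5 at SD. Sobic.006G026100 had 205 FPKM at FI, 2.13 at B, 30.8 at MS and 57.4 at SD. In these 3 genes FI was highest and B lowest. Sobic.006G024800 differed from them, with 5.98 FPKM at FI, 1.62 at B, 10.2 at MS and 41.4 at SD.

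**Figure D2:**
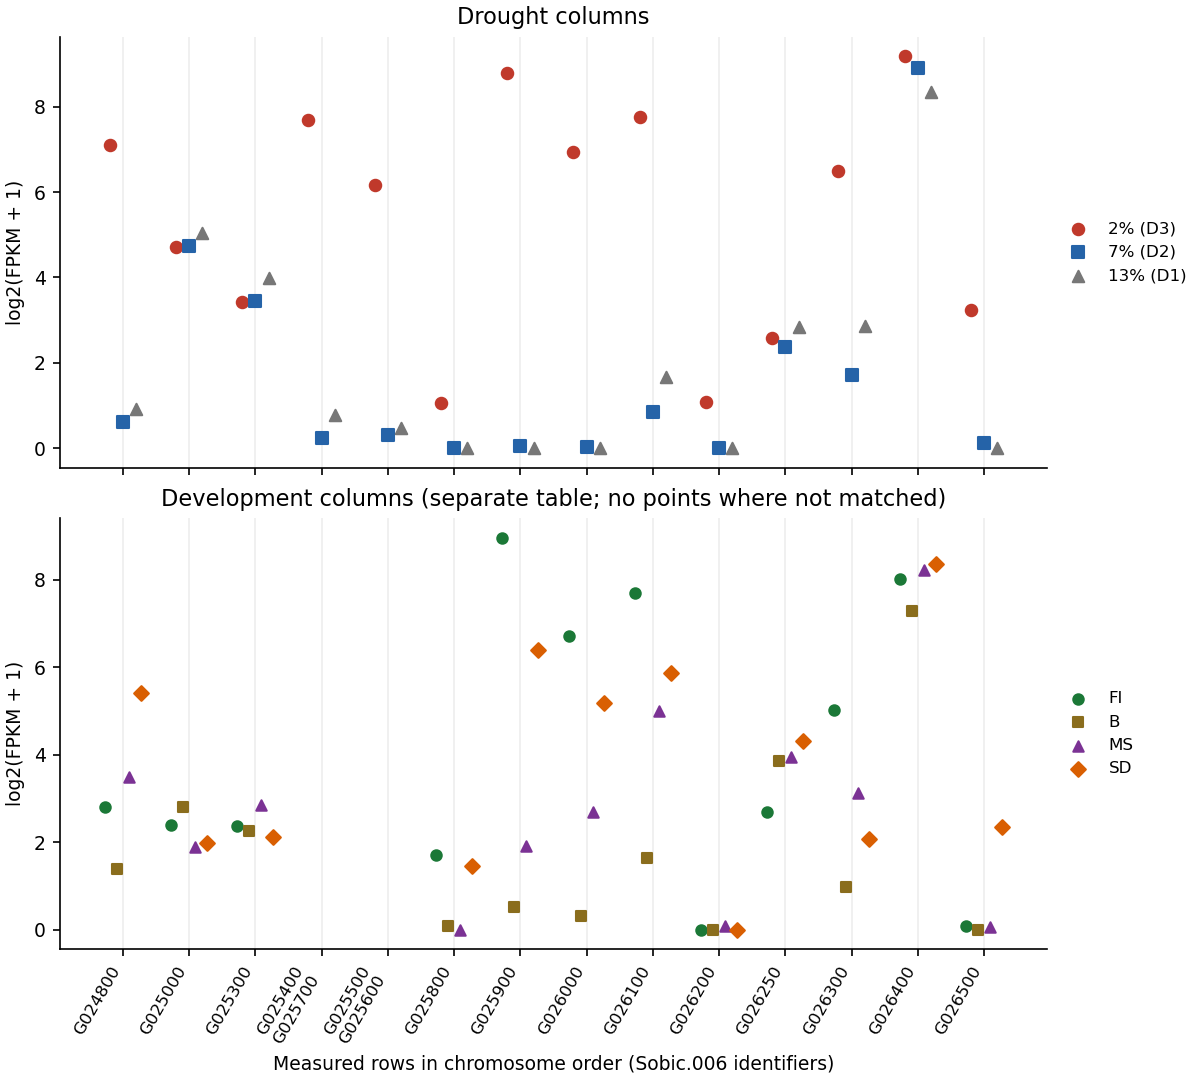
Levels as log2(FPKM + 1) of the 14 measured rows of the chromosome 6 stretch in chromosome order, with the 3 drought groups in the upper panel and the 4 development stages in the lower panel, 1 point per group. In 10 rows the 2% point (D3) stands above the 7% (D2) and 13% (D1) points, by a change of 1.06 to 8.72 over D2, and in the other 4 rows the 3 points lie close together.

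Neighbouring genes differed together elsewhere too, over shorter stretches. The counts here are over all measured rows and include those of the chromosome 6 stretch. Of the 659 higher genes, 121 (18.4%) had an adjacent measured row that was also higher, beside 7.54% of all measured rows with such a neighbour. Among the 152 lower genes 7 (4.61%) had a lower neighbour, beside 1.79% of all measured rows. Unbroken runs of at least 3 higher rows numbered 12 and held 43 rows, 7 of them inside that stretch, and there was 1 such run of lower rows. Some neighbouring rows cover the same locus, such as Sobic.005G218600 and the row of Sobic.005G218400 and Sobic.005G218700. Whether other neighbours are copies of each other or overlap was not tested.

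After the 7 rows from Sobic.006G025400 to Sobic.006G026200 inside the stretch above, the run with the largest changes lay on chromosome 7 (8904277 to 8924777). Its 4 rows, Sobic.007G077001 to Sobic.007G077300, had changes between 3.95 and 4.39. Sobic.007G077100 had 116 FPKM in D3, 5.81 in D2 and 35.6 in D1, and Sobic.007G077200 had 70.1 in D3, 2.39 in D2 and 12.1 in D1. Sobic.007G077001 had 72.0 FPKM in D3, 3.73 in D2 and 21.4 in D1, and Sobic.007G077300 had 40.6 in D3, 1.06 in D2 and 10.2 in D1. In all 4 rows D3 was highest and D2 lowest. In the development table the same 4 genes were lowest at B, between 7.85 and 40.2 FPKM, and highest at SD, between 140 and 237 FPKM.

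The other runs had smaller changes, and in most of them rows differed in whether D3 or D1 was higher. On chromosome 10 (1887482 to 1897161), Sobic.010G023200 had 153 FPKM in D3, 11.9 in D2 and 68.0 in D1, and its neighbours up to Sobic.010G023400 were below 7 FPKM in all 3 groups. On chromosome 9 (3571339 to 3606537), the 4 rows from Sobic.009G038000 to Sobic.009G038401 had changes between 1.09 and 2.50, and the first of them had 108 FPKM in D3, 32.1 in D2 and 26.7 in D1. On chromosome 2 (65291663 to 65318342), the 4 rows from Sobic.002G269032 to Sobic.002G269500 had changes between 1.43 and 2.80. The most abundant of these, the row of Sobic.002G269300 and Sobic.002G269400, had 202 FPKM in D3, 41.2 in D2 and 274 in D1.

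Another run of chromosome 6 (57432358 to 57445069) had its highest values at 13%. Sobic.006G231200, its most abundant row, had 93.1 FPKM in D3, 34.2 in D2 and 371 in D1, and shares its locus with another row. The remaining 6 runs of higher rows, from Sobic.001G224700, Sobic.001G481201, Sobic.003G268700, Sobic.003G322900, Sobic.006G194000 and Sobic.008G058900 on, had 3 rows each. The run of lower rows lay on chromosome 5 (70444022 to 70525282), from Sobic.005G218201 to Sobic.005G218600. Its 3 rows had 0.304 to 3.60 FPKM in D3, 2.37 to 9.27 in D2 and 0.160 to 1.86 in D1. All 3 fell short of 2-fold with a pseudocount of 5 FPKM, and each shares its locus with another row.

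By chromosome, the share of higher genes ran from 2.68% on chromosome 5 to 4.60% on chromosome 6, beside 3.92% of all measured genes. The 68 higher rows of chromosome 6 include the 10 of the stretch above. Chromosome 5 also had the highest share of lower genes, 1.78% of 785 measured, and chromosome 8 the lowest, 0.353% of 849.

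Lower genes were fewer, and their changes smaller. The largest decrease by the same limits was -3.07 for Sobic.010G164500 (chromosome 10, 48651082 to 48652795), at 0.182 FPKM in D3, 8.90 in D2 and 4.18 in D1. Sobic.009G245000 (chromosome 9, 58073717 to 58079719) followed with a change of -2.53, at 8.57 FPKM in D3, 54.2 in D2 and 1.55 in D1. In the first gene D3 was the lowest of the 3 groups, and in the second D2 stood above both others. The most abundant lower gene, singled out after its values were seen, was Sobic.001G012500 (chromosome 1, 1169606 to 1171177). It had 1542 FPKM in D3, 4814 in D2 and 236 in D1, so that D3 was 3.12-fold below D2 and still above D1.

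The higher genes were short. Among the 13363 measured rows with a single gene model and a locus of their own, the locus span (first to last base, introns included) had a median of 1668 bp in the 577 higher genes, 2513 bp in the 125 lower genes and 3905 bp over all. Of the 3341 rows spanning 112 to 2548 bp, 12.8% were higher and 1.92% lower in D3. Of the 3340 rows spanning 5659 bp or more, 0.539% were higher and 0.599% lower. The share of higher genes was smaller at each step of span, with 2.42% and 1.47% in the middle classes, while that of lower genes varied less.

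**Figure D3:**
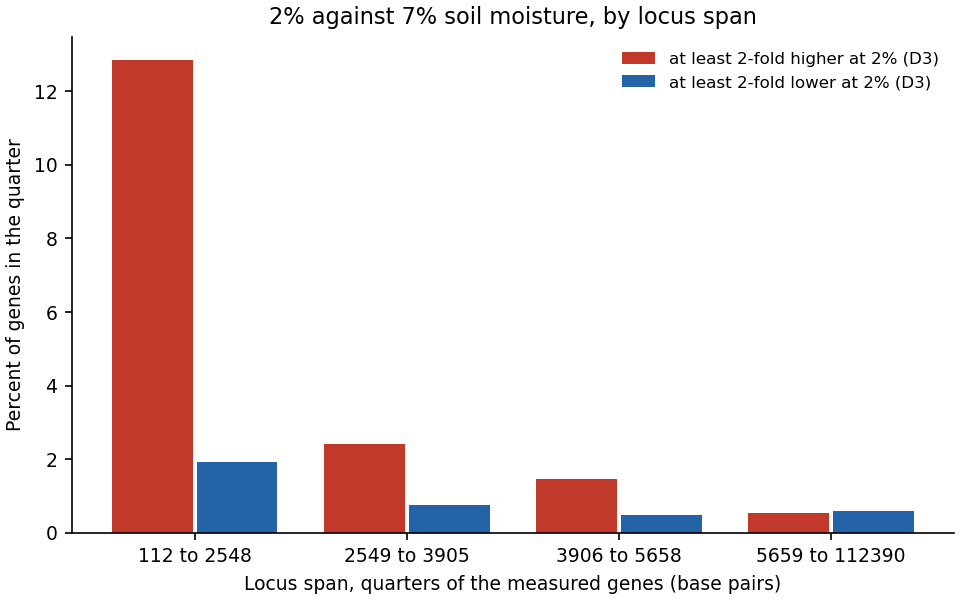
Share of genes at least 2-fold higher (red) or lower (blue) at 2% soil moisture (D3) than at 7% (D2), in 4 classes of near-equal size of locus span in base pairs, over 13363 measured rows with a locus of their own. The red bar is 12.8% in the shortest class and 0.539% in the longest.

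The shortest class had the highest share of higher genes at each of 3 levels of expression. Among genes with a mean of under 5 FPKM over the drought columns, 13.6% of the shortest class and 1.44% of the longest were higher in D3. Between 5 and 50 FPKM the shares were 14.3% and 0.235%, and at 50 FPKM or more 7.89% and 0.266%. At that highest level the share was not smaller at each step of span, with 0.279% and 0.524% in the middle classes. In the other comparisons of the drought table, which share columns with this one, the shortest class also held more 2-fold differences than the whole. D3 was higher than D1 for 12.7% of it and lower for 5.93%, against 5.36% and 3.62% over all spans. D2 was higher than D1 for 7.39% of it and lower for 12.5%, against 4.52% and 6.53%. How short transcripts were corrected for fragment length in the FPKM, and the size of the sequenced fragments, were not given in the sources used here, and their part in these shares was not tested.

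The genes higher in D3 were also examined in the development series, which shares no plants with the pots. Of the 659, 592 were matched there by name and reached 1 FPKM at some stage. Of these, 49.7% had their highest level at SD, beside 25.8% of the 15638 matched measured genes, 4.39% at MS, beside 18.7%, 95 of the 592 at B, beside 25.3% of all, and 29.9% at FI, beside 30.2%. The share at SD was above that of all genes, those at MS and B were below it, and that at FI was near it. Their median level was 13.7 FPKM at FI, 5.597 at B, 8.59 at MS and 15.7 at SD. The medians over all matched genes stayed between 11.7 and 11.9 FPKM at every stage. The medians of the higher genes were thus lowest at booting.

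Counts past 2-fold gave the same picture. At SD compared with MS, 44.1% of the 592 genes were at least 2-fold higher, against 5.88% of all matched genes, and 3.38% were lower, against 4.57%. At B compared with FI, 52.7% were at least 2-fold lower, against 13.2% of all, and 12.3% were higher, against 9.66%. Short genes on the whole leaned the same way, but less. In the shortest span class 13.8% of all genes were higher at SD than at MS, compared with 50.4% of the 393 genes of that class that were higher in D3 and 7.94% of the 2557 that were within 2-fold there.

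The median of the 139 matched genes that were lower in D3 was also lowest at booting, with 13.3 FPKM at FI, 9.54 at B, 13.2 at MS and 13.1 at SD. Their highest stage was FI for 37.4%, beside 30.2% of all matched genes, B for 20.9%, beside 25.3%, MS for 28.1%, beside 18.7%, and SD for 13.7%, beside 25.8%. At SD compared with MS 17.3% of them were higher, beside 5.88% of all, and 20.1% lower, beside 4.57%. At B compared with FI 22.3% of the 139 were higher and 46.0% lower, beside 9.66% and 13.2% of all. Both sets thus held more 2-fold differences at B than all genes did, in both directions, with more decreases than increases. The difference between the sets was not tested.

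**Figure D4:**
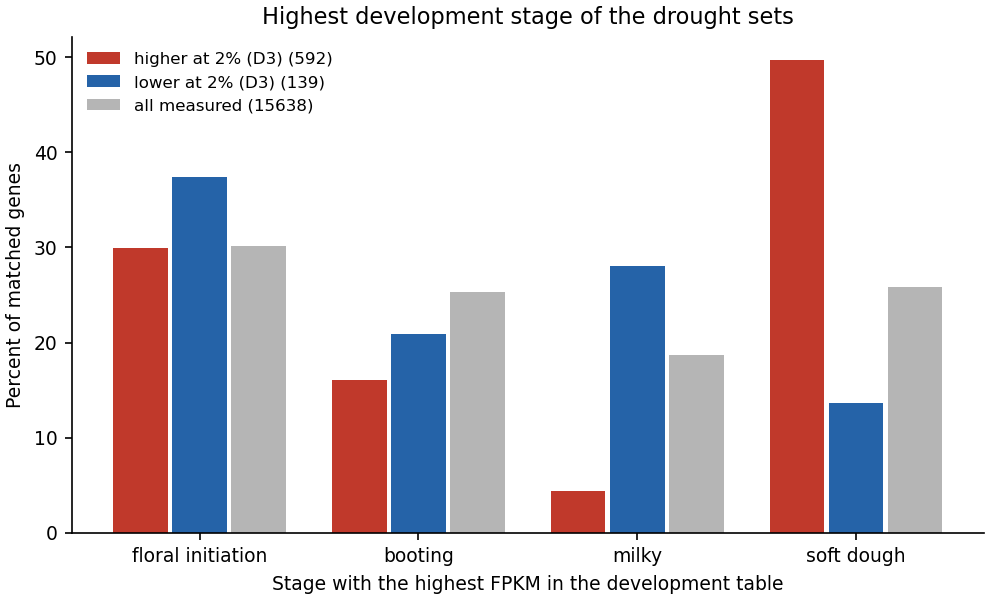
Development stage at which matched genes had their highest FPKM, as a percent of the genes in each set: 592 genes higher at 2% than at 7% soil moisture (red), 139 genes lower (blue) and all 15638 matched measured genes (grey). Soft dough was the highest stage for 49.7% of the red set and 25.8% of the grey one.

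A list of 46 loci with published names was read alongside, all of them in the table and 39 measured. Past 2-fold in D3 were 4 upward and 2 downward, beside 3.92% and 0.905% of all measured genes, while 33 stayed under it, and the median change of the 39 was -0.06. With so few genes the 2 shares cannot be read closely.

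Of 10 sugar transporter genes, 7 were measured, 1 was higher and 6 lay within 2-fold, with a median change of -0.06. Over all measured genes 4.83% were past 2-fold in either direction, so most members of any such list lie within it. The vacuolar sucrose exporter SUT4 had 299 FPKM in D3, 332 in D2 and 355 in D1, the highest level of the list's transporters in all 3 groups. SUT1, a phloem sucrose symporter, had 63.3 FPKM in D3 and 54.0 in D2, and SUT2 had 22.2 in D3 and 23.3 in D2. SUT1 shares its locus with another row. SUT3, SUT5 and SUT6 were listed at 0 in all 3 drought groups. Among the vacuolar importers, TST1 had 176 FPKM in D3 and 246 in D2 and TST2 188 in D3 and 175 in D2, so that TST1 was the more abundant of them in D2 and TST2 in D3. The SWEET exporter Sobic.008G094000 had 170 FPKM in D3 and 219 in D2. The other listed SWEET gene, Sobic.004G133500 (chromosome 4, 21147662 to 21152806), was the 1 past the threshold, with 39.6 FPKM in D3, 18.4 in D2 and 56.8 in D1. Its change was 1.07, and 0.93 with a pseudocount of 5 FPKM.

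Of 8 measured synthases of sucrose metabolism 0 were past 2-fold, which is near the share over all genes for a list of this size, and their median change was -0.07. Sucrose phosphate synthase, which makes sucrose phosphate in the step that commits carbon to sucrose, is encoded by 5 listed genes. Their changes lay between -0.13 and 0.16. The most abundant, Sobic.009G233200, had 87.5 FPKM in D3, 82.5 in D2 and 75.2 in D1. Of the sucrose synthases, enzymes of reversible sucrose cleavage, Sobic.010G072300 had 679 FPKM in D3 and 630 in D2, and the other listed genes had changes of -0.40 and -0.33. Vacuolar invertase, which splits stored sucrose, was under 1 FPKM in all 3 groups and was not measured.

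Cellulose synthase genes lay on both sides. Of the 3 listed cellulose synthase genes, Sobic.002G118700 (chromosome 2, 14784463 to 14790415) was lower with a change of -1.70 and Sobic.003G296400 (chromosome 3, 62851273 to 62857742) higher with 1.06, while Sobic.001G224300 had 0.77. The lower gene carried far more transcript, at 27.6 FPKM in D3, 91.8 in D2 and 53.2 in D1. Sobic.003G296400 had 1.81 FPKM in D3 and 0.354 in D2, and was not past 2-fold after quantile normalization (0.92) or with a pseudocount of 5 FPKM (0.35). Sobic.001G224300 was also weak, at 0.868 FPKM in D3, 0.0922 in D2 and 1.74 in D1, and counted as measured only through D1.

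Of 5 listed lignin genes, 1 was higher, beside 3.92% of all measured genes, and 4 lay within 2-fold, with a median change of 0.30. Each is a single locus, and other genes for the same enzymes were not examined. The higher one was 4CL (Sobic.004G062500, chromosome 4, 5041259 to 5046446), which activates coumarate for the pathway, with a change of 1.78 and 16.6 FPKM in D3, 4.10 in D2 and 30.4 in D1. The listed genes for the enzymes before it in the pathway, PAL (Sobic.004G220300) and C4H (Sobic.002G126600), had changes of -0.33 and -0.57. Of those after it, CAD, which makes the lignin alcohols, had 72.5 FPKM in D3, 49.2 in D2 and 37.5 in D1, a change of 0.55. CCoAOMT, which methylates a coenzyme A ester on the way to them, had a change of 0.30. PAL and C4H share their loci with other rows, and their values are uncertain.

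The dehydrin gene DHN1 (Sobic.009G116700, chromosome 9, 45915614 to 45916682) was lower at the lower soil moisture. It had 24.7 FPKM in D3, 52.4 in D2 and 123 in D1, so that its level was lower in each drier group. The change was -1.05, and it was -0.95 with a pseudocount of 5 FPKM.

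In the gene cluster for dhurrin, the cyanogenic glucoside of sorghum, 1 of 3 listed genes was measured. UGT85B1 (Sobic.001G012400, chromosome 1, 1152500 to 1153979), the glucosyltransferase of the last step, had 4.17 FPKM in D3, 0.409 in D2 and 0.314 in D1, with a change of 1.88 that was 0.76 with a pseudocount of 5 FPKM. CYP79A1 and CYP71E1, which act before it, were under 1 FPKM in all 3 groups, at 0.0074 and 0.817 FPKM in D3 and 0.0091 and 0.676 in D2. Among the listed genes the last enzyme was thus past the threshold without measured levels of the first. The next measured row along the chromosome, Sobic.001G012500, is not on the list, and whether it belongs to the cluster was not examined. It went the other way, with 1542 FPKM in D3, 4814 in D2 and 236 in D1.

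Regulators of stem form and timing all lay within 2-fold between D3 and D2, while only 4.83% of all measured genes lay past it in either direction. Dw2, a protein kinase gene in which mutation shortens the internodes, came nearest with 18.0 FPKM in D3, 32.7 in D2 and 37.1 in D1, a change of -0.83. Dw1 and Dw3, the other listed height genes, had changes of -0.40 and -0.04. The dry-stalk NAC gene, which sets juicy against pithy stems, had a change of 0.35. The morning clock gene LHY had a change of -0.60, the evening gene TOC1 one of 0.51 and GI one of -0.25. LHY had 26.0 FPKM in D3, 40.1 in D2 and 7.28 in D1, and TOC1 had 74.1 in D3, 51.6 in D2 and 117 in D1. GI had 176 FPKM in D3, 210 in D2 and 155 in D1. The sources used here do not give the hour of harvest. The 3 phytochrome genes, for red light receptors, had changes of -0.34 for PhyA, -0.15 for PhyB and -0.35 for PhyC.

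As markers of green leaf or sheath tissue, 5 genes of C4 photosynthesis were read. The C4 form of PEPC, the first carboxylase of the cycle, was at 0.282 FPKM in D3, 0.0530 in D2 and 0.176 in D1. The other 4 were measured and lay within 2-fold, while only 4.83% of all measured genes lay past it in either direction. PPDK, which regenerates the acceptor of that first step, had 25.9 FPKM in D3, 12.7 in D2 and 63.6 in D1, with a change of 0.98 that was 1.02 with a pseudocount of 0.1 FPKM. RbcS, the small subunit of Rubisco, had 180 FPKM in D3, 125 in D2 and 284 in D1. NADP-MDH and NADP-ME, whose rows hold several gene models, had changes of 0.18 and -0.16. The defining PEPC was thus near 0 in all groups. PPDK, RbcS and NADP-MDH had their lowest values in D2, as PEPC did. NADP-ME was instead lowest in D3, at 37.6 FPKM, with 42.1 in D2 and 42.5 in D1. Whether the share of green tissue differed between groups was not tested, and fewer cells of a type cannot be told apart from less RNA per cell.

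**Figure D5:**
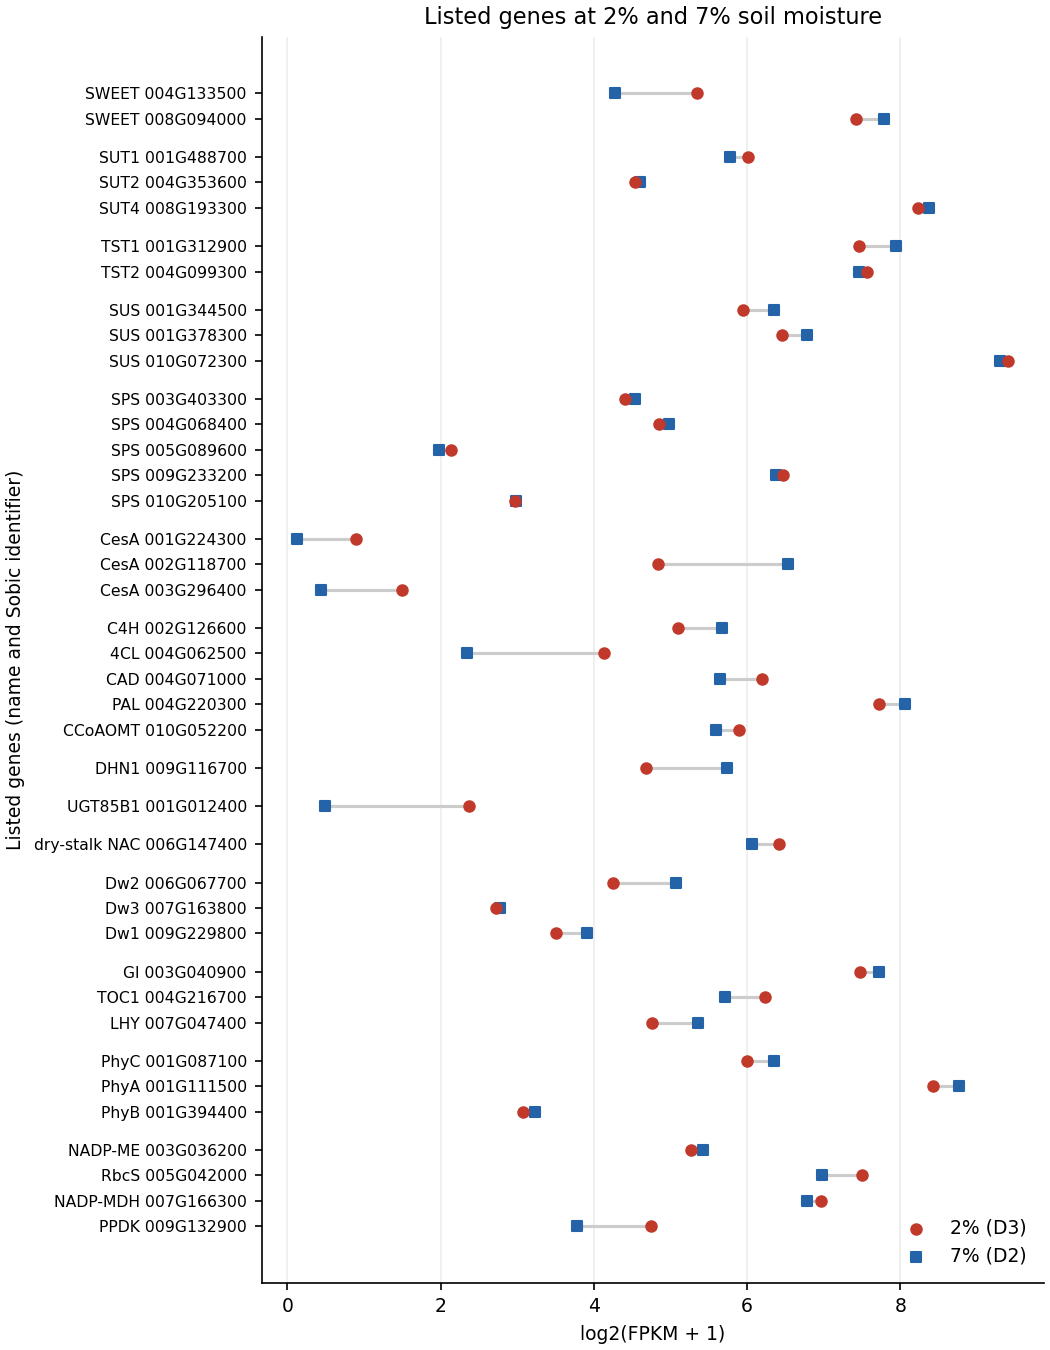
Levels as log2(FPKM + 1) of the 39 measured listed genes at 2% (D3, red circles) and 7% soil moisture (D2, blue squares), 1 value per group, joined by a grey line. The 2 points lie within 2-fold for 33 genes, and 4CL and UGT85B1 have the longest lines to the right of D2, with changes of 1.78 and 1.88.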

How the data were processed

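The deposited table gives FPKM per gene, 1 column per group by the authors, per the file headers. The way in which both samples of a group went into its value was not given in the sources used here. Per the labels' protocols, RNA was prepared with a TRIzol method and a stranded total RNA kit. Tools named in the submitters' processing notes, with no roles, are HISAT2 2.0.5, Bowtie2 2.2.9, Cuffdiff and cutadapt 1.8.1. Columns were matched to groups by name, and 0 value columns were not used. FPKM keep no read counts, so depth and precision are unknown.

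Members, lists and rules were chosen with earlier results of these data known. Identifiers were looked up in a RefSeq gene table, which matched 0 of 34088, so 35 lists that needed gene descriptions stayed empty and 15 lists of published loci were used, with 1 locus not reported here. Genes were named by size of change (the 2 largest each way with a single model, a locus of their own, a value above 0 in both columns and at least 5 FPKM in 1 of them), by list, or by runs of at least 3 neighbouring measured rows. Drought and development tables were joined by names found once in each. A row "shares its locus" where another row has identical coordinates. Counting code was tested on simulated data. Alternatives were pseudocounts of 0.1 and 5 FPKM, a minimum mean of 5 FPKM or none, quantile normalization, median ratio rescaling, and leaving out shared rows. Software was numpy 2.4.6, pandas 2.3.3 and matplotlib 3.10.9 under Python 3.11.15.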

Additional observations from a re-analysis of the deposited data

How the results depend on the processing

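No paired analysis was possible because each group has 1 deposited value. The 659 higher and 152 lower genes became 1051 and 305 with a pseudocount of 0.1 FPKM, 299 and 63 with one of 5 FPKM, and 363 and 98 when the mean had to reach 5 FPKM. They were 644 and 170 after median ratio rescaling, 570 and 188 after quantile normalization, and 577 and 125 without rows of several models or a shared locus. With no filter they stayed at 659 and 152, because rows below 1 FPKM in all 3 columns cannot reach 2-fold. The settings that moved these counts most weigh weakly expressed genes more or less by construction. All 299 higher genes with a pseudocount of 5 FPKM and all 363 with the mean filter were among the 659. So were the 644 after median ratio rescaling and the 577 without rows of several models or a shared locus. This was fixed in advance, because these settings can only lower an upward change or drop rows. After quantile normalization, which can also add genes, 562 of the 570 were among the 659. The median change stayed between -0.05 and 0 under all 7 alternatives. Of 6 listed genes past 2-fold, 2 were past it with a pseudocount of 5 FPKM, 4CL and the cellulose synthase Sobic.002G118700. Other pseudocounts and filters cannot change a sign, and median ratio rescaling shifted values too little to do so past 2-fold. After quantile normalization 0 of the named rows past 2-fold changed sign. Below 2-fold SUT4 did, at -0.15 as reported and 0.0057 after quantile normalization. The mean filter gave values for 74 of the 95 named rows, and leaving out shared rows for 77. Short of 2-fold were 22 with a pseudocount of 5 FPKM, 6 after quantile normalization and, after median ratio rescaling, 1, Sobic.001G225400. With a pseudocount of 0.1 FPKM 2 more passed it, PPDK and the cellulose synthase Sobic.001G224300, the second at 2.33. With 1 value per group, none of these settings stands in for replicates.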

Other observations

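Some rows that share a locus switched between 0 and very high values from column to column. The row of Sobic.010G182100, Sobic.010G182200, Sobic.010G182300 and Sobic.010G182600 (chromosome 10, 52122843 to 52228422) had 2327 FPKM in D3, was listed at 0 in D2 and had 2661 FPKM in D1. It is 1 of the 659 higher genes and was listed at 0 in all 4 development stages. The most abundant row of D2, Sobic.001G141300 (chromosome 1, 11334814 to 11340551), also shares its locus. It had 19778 FPKM in D3, 2.51% of that column's sum, and 23987 in D2, 2.89%, and was listed at 0 in D1. Both rows were singled out after their values were seen. The most abundant higher genes with a value above 0 in D2 were Sobic.008G049200, at 1236 FPKM in D3 and 514.5 in D2, and Sobic.009G247900, at 556 in D3 and 196 in D2.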
